A study of Mus musculus with 24 samples.

Results

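Followed here are the transcripts of 10 proteins that the liver secretes in bulk, namely the plasma carriers Alb, Ttr, Rbp4, Gc, Ahsg and Hpx, and the major urinary proteins Mup1, Mup3, Mup20 and Mup21. Their genes were taken by symbol from tables that listed 17537 genes in all, and each of the 10 had a row in all 24 liver libraries. The livers came from male C57BL/6 mice given 1 of 4 gavages. The DE group received DEHP, di(2-ethylhexyl) phthalate, at 2500 mg/kg body weight together with ethanol at 1 g/kg. The DEHP group received the same dose of DEHP alone, the EtOH group the same dose of ethanol alone, and the CT group 0.5% CMC as the control. DEHP is a plasticiser that acts in rodent liver through the nuclear receptor Ppara. CMC stands in the titles of CT libraries alone, so treatment and carrier cannot be told apart if the other groups went without it. Each group had 6 libraries. The labels give more mice than libraries in each group and say neither whether mice were pooled nor how long they were dosed, and the p-values measure the spread between these libraries, part of which may be technical.

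Hepatocytes make most of the proteins of blood plasma, and the transcripts of these carriers are among the most abundant in the liver. Carriers bind small or toxic cargo, such as fatty acids, thyroid hormone, retinol, vitamin D, calcium phosphate and heme, and keep it soluble in blood. Major urinary proteins are small lipocalins that male mice make in the liver and pass into urine, where they bind pheromones. Their genes form a recent, repeated cluster, and in mice the male pattern of growth hormone pulses keeps their transcription high.

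The genes were placed on build GRCm38.p6 with the RefSeq gene table, which matched all 10. The 4 Mup members lie among 21 Mup rows between 59956804 and 62150841 on chromosome 4. Mup1 (gene 17840) spans 60498012 to 60501960, Mup20 (gene 381530) 62011337 to 62054143, Mup3 (gene 17842) 62083476 to 62087317, and Mup21 (gene 381531) 62147832 to 62150841. These copies differ in how well reads can tell them apart. The best-matching coding transcript of Mup1 was over 95% identical to 14 of the 17 other Mup genes, with 99.63% for Mup12. The closest of the 17 reached 91.34% for Mup20, 86.19% for Mup21 and 84.96% for Mup3, while Mup3 and Mup21 were 94.75% identical to each other. Fractional counts show how reads were split. All 6 carriers had whole expected counts in 24 of 24 libraries, against 0 of 24 for Mup1, 3 for Mup3, 1 for Mup20 and 2 for Mup21. Levels of single Mup genes, of Mup1 above all, are therefore uncertain.

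RefSeq promoter sequence (GRCm38.p6) was matched for 7 of the 10 genes: Alb, Rbp4, Gc, Ahsg, Hpx, Mup3 and Mup21. The promoter of Alb is shown because the D-box, the site that names the factor Dbp (albumin D-box binding protein), was defined in it. Capitals mark matches, on either strand, to the letters TTATGTAA or TTTTGTAA (D-box), GTTAAT (the core of an HNF1 site) and CCAAT. The promoter of Gc is shown with the same marks. The 250 bases before the start are chr5:90460620-90460869 on the plus strand for Alb and chr5:89457899-89458148 on the minus strand for Gc.
Alb: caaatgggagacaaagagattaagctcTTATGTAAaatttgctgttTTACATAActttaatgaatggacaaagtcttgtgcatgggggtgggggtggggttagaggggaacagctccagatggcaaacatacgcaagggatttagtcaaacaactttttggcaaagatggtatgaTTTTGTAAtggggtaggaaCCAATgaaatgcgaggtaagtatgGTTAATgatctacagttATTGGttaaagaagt
Gc: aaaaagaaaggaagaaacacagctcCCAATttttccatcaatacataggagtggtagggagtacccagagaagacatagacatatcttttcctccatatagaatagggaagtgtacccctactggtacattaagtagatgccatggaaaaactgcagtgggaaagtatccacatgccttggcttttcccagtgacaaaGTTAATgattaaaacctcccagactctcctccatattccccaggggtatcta
In the Alb promoter TTATGTAA occurs 2 times, against 0.819% of 32851 promoters of the same length with any match, and TTTTGTAA occurs once, against 1.04% of promoters. GTTAAT is in 6.43% of promoters and, among the 7 matched genes, in Alb and Gc. CCAAT is in 33.9% of promoters and in 4 of the 7. No match in Alb or Gc overlaps another. The letters TATAAA (12.4% of promoters), TTACGTAA (D-box, 0.113%) and TTCNNNGAA (the core of a STAT5 site, 7.02%) were also searched on both strands and had no match in Alb or Gc.

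The promoters of Mup3 (chr4:62087318-62087567) and Mup21 (chr4:62150842-62151091), both on the minus strand, are shown because these neighbouring genes are the pair of Mup members most alike in sequence. Here capitals mark each base that differs from, or has no partner in, the other promoter.
Mup3: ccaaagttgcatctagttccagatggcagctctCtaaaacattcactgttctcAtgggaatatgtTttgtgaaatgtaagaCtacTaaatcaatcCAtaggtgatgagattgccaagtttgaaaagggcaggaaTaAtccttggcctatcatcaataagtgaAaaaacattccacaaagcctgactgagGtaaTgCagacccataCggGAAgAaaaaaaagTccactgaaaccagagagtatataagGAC
Mup21: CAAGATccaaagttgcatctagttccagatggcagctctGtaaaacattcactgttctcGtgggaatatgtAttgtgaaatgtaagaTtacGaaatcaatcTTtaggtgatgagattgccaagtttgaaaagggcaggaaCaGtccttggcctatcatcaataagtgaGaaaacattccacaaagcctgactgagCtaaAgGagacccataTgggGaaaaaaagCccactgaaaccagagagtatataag
When aligned they shared 228 of 256 columns. None of the letters searched above occurs in either.

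Livers of DEHP and DE mice held less RNA of most of these secreted proteins than CT livers, and the 4 Mup members differed more than the 6 carriers. This was less clear for the other Mup rows. Of 16 tested, edgeR called 0 in either group against CT, with median log2 changes of 0.11 in DE and -0.33 in DEHP. The other Mup rows, tested or not, took a median of 1.99% of all counts in DE, 1.65% in DEHP and 3.27% in CT. Their share was widely scattered, from 1.23% to 5.52% in DE and from 1.35% to 5.45% in DEHP. The sum of all 21 Mup rows had log2 changes of -0.65 in DE and -0.66 in DEHP, neither called. In the DEHP group 7 of the 10 fell against CT at an adjusted p below 0.05 (edgeR quasi-likelihood test), while 11.6% of all 10697 genes tested fell and 26% changed either way. In the DE group 9 of 10 fell against CT, while 17.4% of all genes fell and 36.8% changed. Against EtOH, 10 of 10 fell in the DE group, while 12.7% of all genes fell and 27.8% changed. In the EtOH group 2 of 10 rose against CT and none fell, while 14.2% of all genes rose and 28.8% changed. This was near the share of all genes, and the number called ranged from 0 to 3 over 14 alternative analyses. Between DE and DEHP 0 of 10 were called, where 0.122% of all genes were, 0.0467% higher and 0.0748% lower in DE. None of the 10 reached an unadjusted p below 0.05 there, and DESeq2 also called 0. The comparisons against CT share their 6 control libraries.

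The median log2 change of the 10 was -0.64 for DE against CT, -0.60 for DEHP against CT and 0.26 for EtOH against CT, beside medians over all genes of -0.01, -0.02 and -0.01. For DE against EtOH it was -0.69, beside 0.02 over all genes. The 4 Mup members had a median of -1.93 in DE against CT, and the 6 carriers one of -0.44. In DEHP against CT these medians were -1.24 and -0.39. Groups whose FPKM ranges did not overlap were found for 5 of 10 members in DE against CT (16.1% of all genes), 4 in DEHP against CT (9.96%), 1 in EtOH against CT (10.7%), 8 in DE against EtOH (15.7%) and 0 in DE against DEHP (0.664%). FPKM is the authors' count scaled by transcript length and library depth.

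**Figure D1:**
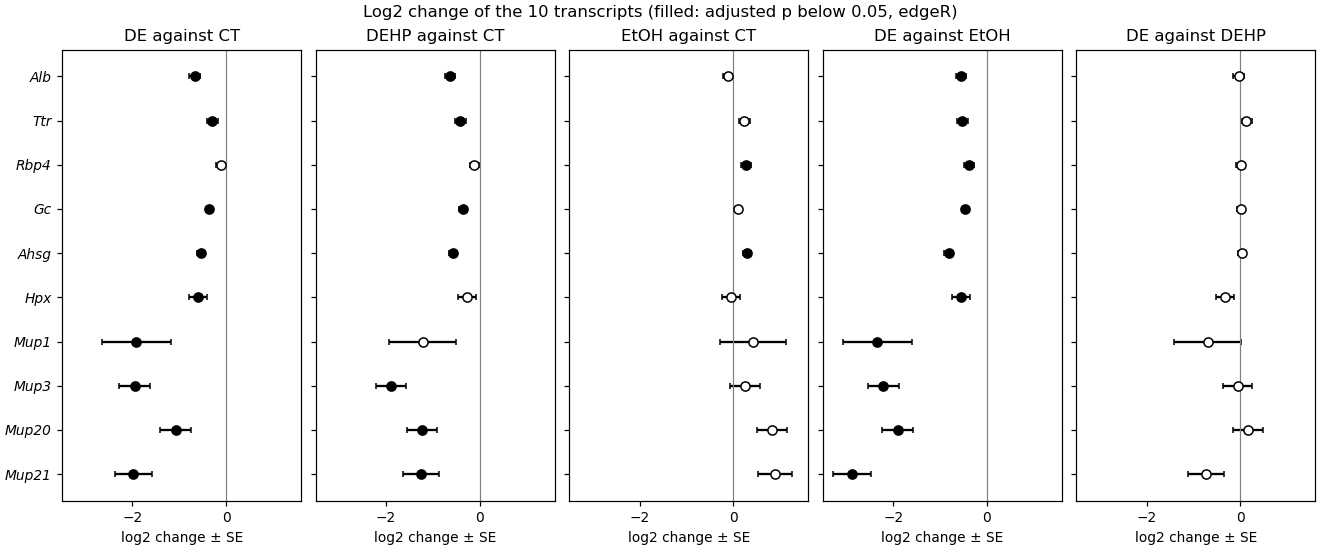
Log2 change with its standard error (x axis) of the 10 transcripts (rows) in 5 comparisons (panels), from edgeR over 24 libraries; filled points have an adjusted p below 0.05. The points of the 10 transcripts lie left of 0 in DE against CT, DEHP against CT and DE against EtOH, and 0 of 10 are filled in DE against DEHP.

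Between 7324793 and 8016662 expected counts were summed over the genes of a library. The label liver held in every library: 10 hepatocyte markers summed to 21698.5 to 25461 FPKM in DE, 21462 to 23612 in DEHP, 26747 to 32337 in EtOH and 22850.4 to 28911 in CT. Of these markers 1 rose and 6 fell in DE against CT, 1 rose and 6 fell in DEHP against CT, and 4 rose and 3 fell in EtOH against CT. Their median log2 changes were -0.43 in DE, -0.38 in DEHP and 0.09 in EtOH against CT. Those of the 6 carriers were near these, at -0.44, -0.39 and 0.17. Of 8 endothelial markers 3 fell in DE, 2 in DEHP and 4 in EtOH against CT, with sums of 62.6 to 100.1 FPKM in DE, 65.9 to 107 in DEHP, 50.5 to 67.7 in EtOH and 64.4 to 129.6 in CT. Of 8 stellate cell markers 2 fell in DEHP and 2 in EtOH against CT, and of the 2 tested adipocyte markers 1 rose in DE and 1 in DEHP against CT. Adipocyte markers summed to 24.5 to 118 FPKM in DE, 17.7 to 152 in DEHP, 3.3 to 7.35 in EtOH and 7.78 to 64.4 in CT. Over all genes, 36.8% changed in DE, 26% in DEHP and 28.8% in EtOH against CT. The shares called among endothelial markers in DE and DEHP, and among stellate cell markers in DEHP and EtOH, were near these. The part of these marker differences in the carrier values was not tested. Libraries CT 1 and DE 6 also held transcripts of skeletal muscle (10 markers summing to 6274 and 4632 FPKM, and at most 4.47 FPKM in all other libraries), and DEHP 6 held transcripts of pancreas (649 FPKM, and at most 3.19 elsewhere). Without these 3 libraries the counts of members called were 7 in DE against CT, 6 in DEHP against CT and 9 in DE against EtOH. Of the 10586 genes tested in that setting, 1800 rose and 1937 fell in DE against CT. In DEHP against CT 1146 rose and 958 fell, and in DE against EtOH 1552 rose and 1497 fell. In bulk RNA, fewer cells of a type and less RNA per cell cannot be told apart.

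Albumin (Alb, gene 11657, chromosome 5, 90460870 to 90476602) carries fatty acids, bilirubin and many drugs and sets most of the oncotic pressure of plasma. It had the lowest, median and highest values of 21359, 21938 and 25117 FPKM in DE livers, 17613, 24104 and 26874 in DEHP livers, 28289, 30874 and 36949 in EtOH livers and 28988, 37810 and 39584 in CT livers. Every DE and DEHP library lay below every EtOH and CT library. The means were 22688 ± 1488 FPKM in DE, 23468 ± 3612 in DEHP, 31658 ± 3014 in EtOH and 35942 ± 4204 in CT (SD, n = 6 each). Alb fell by 0.67 ± 0.11 on the log2 scale in DE against CT (adjusted p = 5.75e-05) and by 0.64 ± 0.11 in DEHP against CT (adjusted p = 0.000179, edgeR). It was lower than the CT mean in 6 of 6 libraries of both groups. Ethanol alone gave a log2 change of -0.12 ± 0.11 (adjusted p = 0.457). Alb had the highest FPKM of all genes in every EtOH and CT library and ranked first or second in the DE and DEHP libraries.

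As a share of all counted RNA, Alb took 4.05% to 4.77% in DE libraries, 3.38% to 5.13% in DEHP libraries, 5.37% to 7.04% in EtOH libraries and 5.56% to 7.51% in CT libraries. The 10 members together took 6.54% ± 0.34 in DE, 6.74% ± 0.65 in DEHP, 10.01% ± 0.68 in EtOH and 10.3% ± 0.90 in CT (SD, n = 6 each). In the plot of shares by library, the 4 Mup members differed most in proportion, with 0.325% ± 0.181 of the counts in DE and 0.330% ± 0.224 in DEHP, against 1.30% ± 0.13 in EtOH and 0.974% ± 0.104 in CT. The share of the other 17 Mup rows was more scattered, with 1.23% to 5.52% in DE, 1.35% to 5.45% in DEHP, 2.63% to 6.52% in EtOH and 2.53% to 4.42% in CT.

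**Figure D2:**
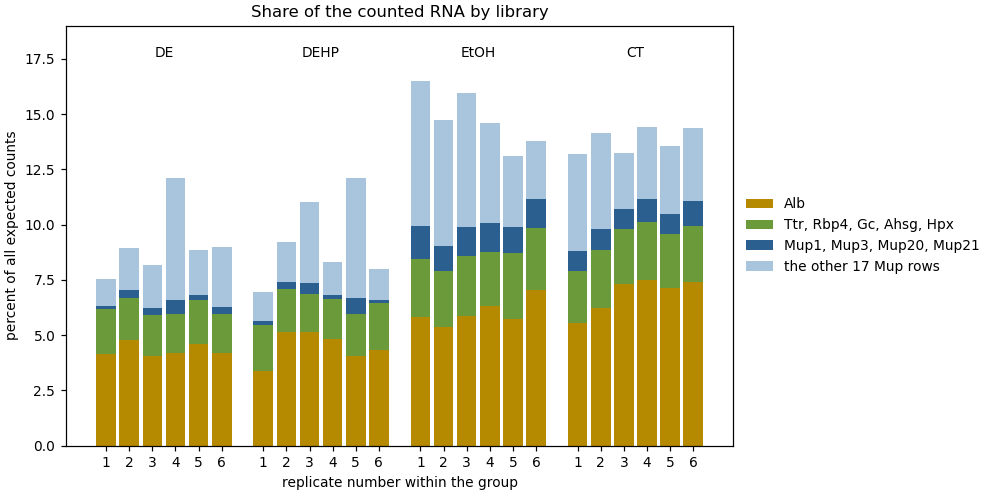
Percent of all expected counts (y axis) taken by Alb, the 5 other carriers, the 4 Mup members and the 17 other Mup rows, stacked, in each library (x axis: replicate number within DE, DEHP, EtOH and CT). The dark blue band of the 4 Mup members is at most 0.717% in DEHP and 0.653% in DE libraries, and at least 1.14% in EtOH and 0.902% in CT libraries.

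Transthyretin (Ttr, gene 22139, chromosome 18, 20664209 to 20674326) carries thyroxine and holds the retinol-binding protein in blood. It had 3687, 4433 and 5558 FPKM (lowest, median, highest) in DE livers, 3541, 4168 and 4867 in DEHP livers, 5341, 6223 and 6798 in EtOH livers and 4260, 5695 and 6372 in CT livers. All of these ranges overlap, except that the highest DEHP library was below the lowest EtOH library. Ttr fell by 0.42 ± 0.12 on the log2 scale in DEHP against CT (adjusted p = 0.00944) and by 0.52 ± 0.12 in DE against EtOH (adjusted p = 0.00125, edgeR). The fall of 0.29 ± 0.12 in DE against CT was at the edge of the threshold (adjusted p = 0.0492). It missed the threshold in 12 of the 24 analyses that left out 1 library, namely without any 1 of DE 3 to 6, DEHP 1 and 4, EtOH 2 and 6 and CT 3 to 6 (log2 changes of -0.31 to -0.24, adjusted p of 0.0512 to 0.119). It also missed it with quantile normalisation (adjusted p = 0.0629), without the filter on low values (adjusted p = 0.0653) and with only the DE and CT libraries in the fit (adjusted p = 0.102).

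Rbp4 (gene 19662, chromosome 19, 38116620 to 38125321), which carries retinol from the liver on transthyretin, had the smallest change of the 10 in DE and in DEHP against CT. It had 2836, 3274 and 3338 FPKM in DE livers, 2833, 3254 and 3398 in DEHP livers, 3772, 3881 and 4213 in EtOH livers and 2528, 3486 and 3951 in CT livers. The CT libraries were the most scattered and spanned the DE and DEHP ranges, while every DE and DEHP library lay below every EtOH library. The log2 change was -0.11 ± 0.10 both in DE against CT (adjusted p = 0.425) and in DEHP against CT (adjusted p = 0.422, edgeR). Rbp4 rose by 0.27 ± 0.10 in EtOH against CT (adjusted p = 0.0427) and fell by 0.38 ± 0.10 in DE against EtOH (adjusted p = 0.00546). The rise with ethanol missed the threshold in 12 of 14 alternative analyses, with log2 changes of 0.12 at the lowest. It also missed it without any 1 of DE 2, 3 and 5, DEHP 2 to 6, EtOH 1, 3, 5 and 6 and CT 1 to 3 (log2 changes of 0.19 to 0.27, adjusted p of 0.0504 to 0.117). With the trend of counts against transcript length removed in each library, the change was 0.13 for EtOH (adjusted p = 0.275) and became a fall of 0.34 for DE against CT (adjusted p = 0.00537) and of 0.25 for DEHP against CT (adjusted p = 0.0431).

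The vitamin D-binding protein Gc (gene 14473, chromosome 5, 89417511 to 89457898), which also clears actin from plasma, had the smallest standard errors of the 10. Its values were 2198, 2350.1 and 2492 FPKM in DE livers, 2108, 2389 and 2423 in DEHP livers, 2918, 3047 and 3174 in EtOH livers and 2541, 3022 and 3180.4 in CT livers. The DE and DEHP libraries were all below the EtOH and CT libraries. Gc fell by 0.36 ± 0.07 on the log2 scale in DE against CT (adjusted p = 0.000543) and by 0.37 ± 0.07 in DEHP against CT (adjusted p = 0.000655, edgeR). For EtOH against CT the log2 change was 0.10 ± 0.07 (adjusted p = 0.304).

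Fetuin-A (Ahsg, gene 11625, chromosome 16, 22892015 to 22899451) keeps calcium phosphate in solution and, in rodents, binds the insulin receptor. It had 3111, 3469 and 3852 FPKM in DE livers, 2949.9, 3427 and 3881 in DEHP livers, 5323, 5908 and 6145 in EtOH livers and 4687, 4991 and 5337 in CT livers. The groups formed steps, with DE and DEHP lowest, CT above them without overlap, and EtOH highest with its lowest library just inside the CT range. Ahsg fell by 0.53 ± 0.09 on the log2 scale in DE against CT (adjusted p = 3.61e-05) and by 0.57 ± 0.09 in DEHP against CT (adjusted p = 2.25e-05, edgeR). It rose by 0.29 ± 0.09 in EtOH against CT (adjusted p = 0.0145). The fall of 0.82 ± 0.09 in DE against EtOH had the smallest adjusted p among the members (9.69e-08). The rise with ethanol was 0.19 when the length trend was removed (adjusted p = 0.0769), 0.03 with quantile normalisation (adjusted p = 0.785) and 0.12 with limma on TPM (adjusted p = 0.217).

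Hemopexin (Hpx, gene 15458, chromosome 7, 105591611 to 105600116) binds free heme and in rodents is an acute-phase protein. Its values were 2025, 2524 and 2701 FPKM in DE livers, 2276, 2667 and 5214 in DEHP livers, 2816, 3255 and 4687 in EtOH livers and 2563, 3345 and 5312 in CT livers. Single libraries stood high: DEHP 1 with 5214, EtOH 5 with 4687, and CT 1 and CT 2 with 4614 and 5312 FPKM. Haptoglobin (Hp), another acute-phase carrier, was highest in the same libraries of these groups, with 7982 FPKM in DEHP 1, 3696 in EtOH 5, and 4641 and 5006 in CT 1 and CT 2. Alb was the lowest of its group in DEHP 1 and CT 1, with 17613 and 28988 FPKM. DEHP 1 was also the highest of its group in 8 markers of Kupffer cells and macrophages (summing to 239 FPKM, group median 93.1), 8 of endothelial cells (107, median 71.3), 5 of adipocytes (152, median 52) and 8 of lymphocytes (6.41, median 2.6). Macrophage markers were highest in EtOH 2 and CT 3 in those groups. The part of these cells in the Hpx values was not tested.

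Hpx fell by 0.60 ± 0.20 on the log2 scale in DE against CT (adjusted p = 0.0178, lower than the CT mean in 6 of 6 libraries) and by 0.55 ± 0.20 in DE against EtOH (adjusted p = 0.0375, edgeR). Both calls were lost in some alternatives: without CT 2 the first was -0.48 (adjusted p = 0.0521), and without EtOH 5 the second was -0.44 (adjusted p = 0.1005). The second was also lost without any 1 of DE 3 to 6 and EtOH 3 and 6 (adjusted p of 0.0511 to 0.0728). Without the 3 libraries with transcripts of other tissues the first was -0.53 (adjusted p = 0.0618) and the second -0.52 (adjusted p = 0.0641). The second was lost as well with library size only (-0.47, adjusted p = 0.0667), with quantile normalisation (-0.35, adjusted p = 0.19) and in the 3 limma analyses (-0.46 to -0.41, adjusted p of 0.0673 to 0.119). In DEHP against CT the log2 change was -0.27 ± 0.20 (adjusted p = 0.315). Without DEHP 1 it was -0.50 (adjusted p = 0.0359).

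**Figure D3:**
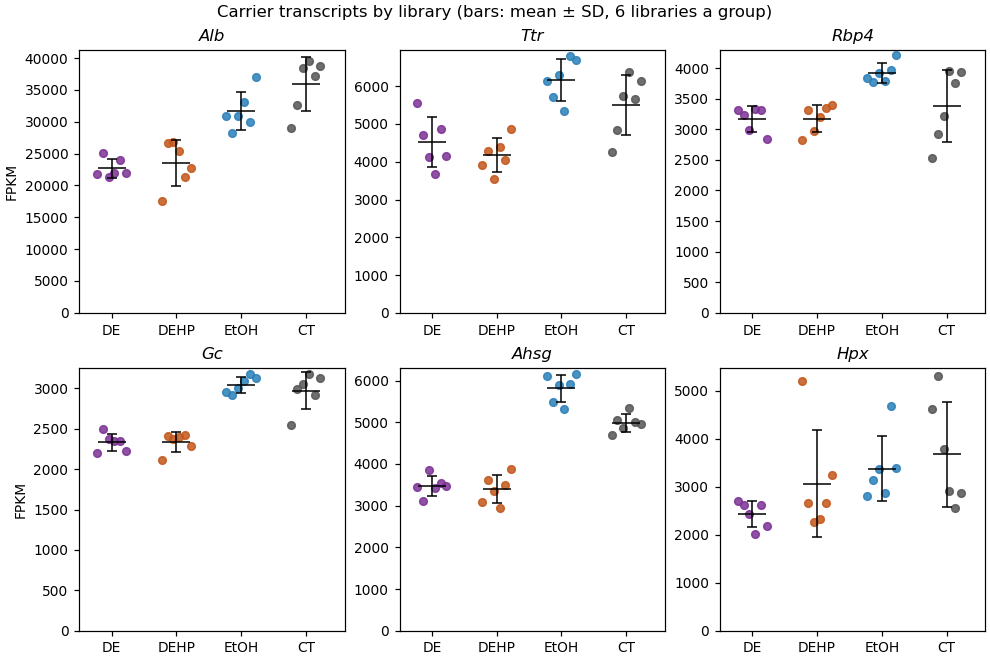
FPKM (y axis, from 0) of the 6 carriers in each library, with DE, DEHP, EtOH and CT from left to right; points are libraries, bars give the mean and SD of 6. For Alb, Gc and Ahsg every DE and DEHP point lies below every CT point (Alb at most 25117 FPKM in DE and 26874 in DEHP, against at least 28988 in CT), while Hpx has single high points in DEHP, EtOH and CT.

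Among the urinary proteins, Mup3 had the smallest adjusted p of the 4 in DE and in DEHP against CT. It had 738, 1847 and 3380.4 FPKM in DE livers, 778, 1491 and 4427 in DEHP livers, 7548, 8358 and 9960.5 in EtOH livers and 6872, 7307 and 8561 in CT livers. No DE or DEHP library reached an EtOH or CT library. Mup3 fell in DE against CT, with a log2 change of -1.95 ± 0.33 (adjusted p = 5.43e-05), in DEHP against CT, with -1.89 ± 0.33 (adjusted p = 0.000125), and in DE against EtOH, with -2.21 ± 0.33 (adjusted p = 1.47e-05, edgeR). In linear terms the DE level was 0.258 of CT and the DEHP level 0.269 of CT. For EtOH against CT the log2 change was 0.26 ± 0.32 (adjusted p = 0.567).

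Mup20 is darcin, the male urinary pheromone that attracts female mice. Its values were 849.9, 1993 and 4689.6 FPKM in DE livers, 1010.2, 1723 and 4201 in DEHP livers, 6996, 7823 and 9172 in EtOH livers and 3921, 4388 and 6325 in CT livers. Libraries DE 4 and DEHP 5, with 4689.6 and 4201 FPKM, reached into the CT range, and every EtOH library was above every CT library. Mup20 fell in DE against CT, with a log2 change of -1.08 ± 0.33 (adjusted p = 0.0113), in DEHP against CT, with -1.23 ± 0.33 (adjusted p = 0.00686), and in DE against EtOH, with -1.90 ± 0.33 (adjusted p = 0.000101, edgeR). In EtOH against CT it had a log2 change of 0.82 ± 0.32 (adjusted p = 0.0582, above the CT mean in 6 of 6 libraries), which missed the threshold over all 24 libraries. With only the EtOH and CT libraries in the fit the change was 0.80 (adjusted p = 0.000459). It also passed without any 1 of DE 1, DE 4, DEHP 5 and CT 6 (adjusted p of 0.03 to 0.0471).

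Mup21, a low-abundance member, had 13.4, 37.2 and 95.5 FPKM in DE livers, 26.8, 50.5 and 167 in DEHP livers, 227, 264 and 439 in EtOH livers and 96.5, 168 and 239 in CT livers. All DE libraries were below the CT range, while DEHP 3 and DEHP 5, with 108 and 167 FPKM, were inside it. Mup21 fell in DE against CT, with a log2 change of -1.98 ± 0.39 (adjusted p = 0.000311), in DEHP against CT, with -1.25 ± 0.38 (adjusted p = 0.0164), and in DE against EtOH, with -2.87 ± 0.40 (adjusted p = 4.73e-06, edgeR), the last to 0.136 of the EtOH level. In EtOH against CT the log2 change was 0.89 ± 0.37 (adjusted p = 0.068), and it passed the threshold without DE 4 (adjusted p = 0.0424) or DEHP 5 (adjusted p = 0.0422), with quantile normalisation (0.88, adjusted p = 0.0383) and with only the EtOH and CT libraries in the fit (0.87, adjusted p = 0.00492). In DEHP against CT it missed the threshold without the 3 libraries with transcripts of other tissues (-1.06, adjusted p = 0.0676).

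Mup1 had the largest standard errors of the 10. It had 23.8, 81.3 and 751 FPKM in DE livers, 34.7, 92.6 and 1060.2 in DEHP livers, 294, 898 and 1785 in EtOH livers and 537, 700.4 and 990.2 in CT livers. In DE, 5 of 6 libraries lay at or below 180.1 FPKM and DE 4 stood at 751. In DEHP, 4 of 6 lay at or below 95.9 FPKM, with DEHP 3 at 597 and DEHP 5 at 1060.2. The log2 change was -1.91 ± 0.73 in DE against CT (adjusted p = 0.0423), -1.22 ± 0.72 in DEHP against CT (adjusted p = 0.219), 0.42 ± 0.71 in EtOH against CT (adjusted p = 0.684) and -2.33 ± 0.74 in DE against EtOH (adjusted p = 0.0199, edgeR). Without DE 4 the change in DE against CT was -3.12 and that in DE against EtOH was -3.54. The call in DE against CT was lost without any 1 of DE 1, 2, 3, 5 and 6 and CT 1, 2, 4 and 5 (log2 changes of -1.94 to -1.68, adjusted p of 0.053 to 0.0857). It was also lost without the filter on low values (adjusted p = 0.062) and without the 3 libraries with transcripts of other tissues (adjusted p = 0.0838). The change in DEHP against CT passed the threshold without DEHP 5 (-2.06, adjusted p = 0.0361), with quantile normalisation (-2.29, adjusted p = 0.0139), with limma on log2(FPKM + 1) or log2(FPKM + 0.1) (-2.18 and -2.19, adjusted p = 0.0302 and 0.0368) and with limma on TPM (-2.19, adjusted p = 0.0302).

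**Figure D4:**
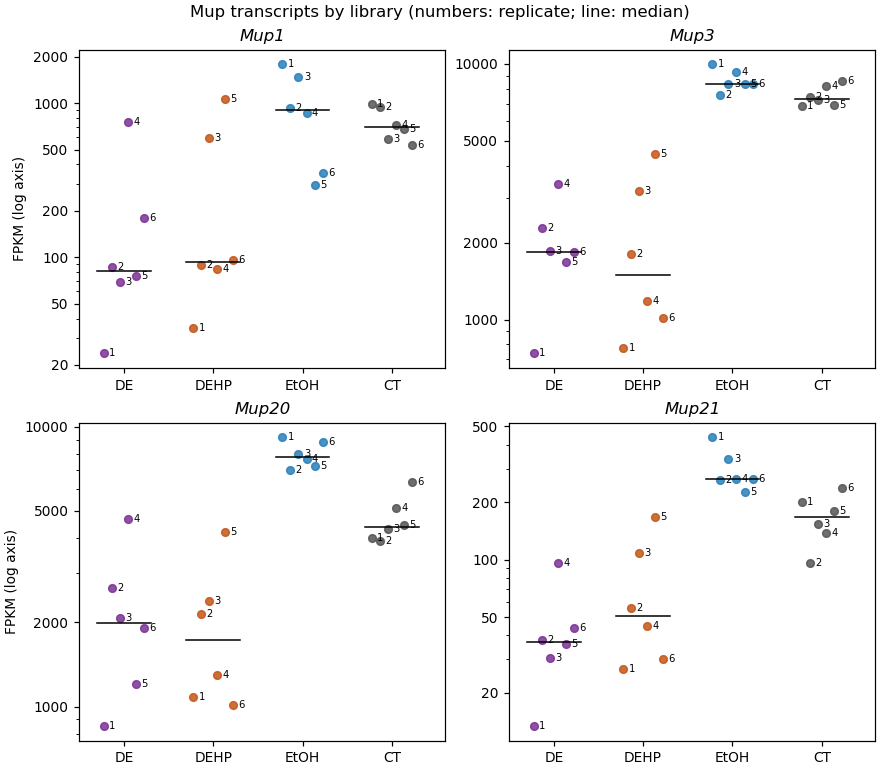
FPKM on a log axis (y axis) of the 4 Mup members in each library, with DE, DEHP, EtOH and CT from left to right; each point carries its replicate number and the line is the median of 6. DE 4, DEHP 3 and DEHP 5 stand above the rest of their groups, with 751, 597 and 1060.2 FPKM for Mup1.

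The same 3 libraries stood out across the Mup cluster. DE 4 was the highest of its group in 19 of the 20 Mup rows tested, DEHP 5 in 20 of 20, and DEHP 3 was highest or second in 19 of 20. The summed FPKM of all 21 Mup rows was 18606, 31324 and 82999.6 in DE livers (lowest, median, highest), 20038, 25762 and 82653 in DEHP livers, 52976, 84597 and 107108 in EtOH livers and 45975, 58646 and 68520.5 in CT livers. With the 21 rows merged into 1, which is indifferent to how reads were split among copies, the log2 change was -0.65 ± 0.33 in DE against CT (adjusted p = 0.135), -0.66 ± 0.33 in DEHP against CT (adjusted p = 0.147) and 0.52 ± 0.33 in EtOH against CT (adjusted p = 0.244). It fell by 1.17 ± 0.34 in DE against EtOH (adjusted p = 0.0108, edgeR). Without DE 4 the sum fell by 1.04 in DE against CT (adjusted p = 0.0115), and without DEHP 5 it fell by 1.04 in DEHP against CT (adjusted p = 0.0141).

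Merging the 4 members alone gave a fall of 1.58 in DE against CT (adjusted p = 0.000692) and of 1.58 in DEHP against CT (adjusted p = 0.00113, edgeR). Of the other 17 Mup rows 16 were tested, and edgeR called 0 of them in DE, DEHP or EtOH against CT, with 2, 0 and 0 at an unadjusted p below 0.05 and 1, 0 and 0 called by DESeq2. Their median log2 changes were 0.11, -0.33 and 0.68 in these comparisons, where edgeR called 36.8%, 26% and 28.8% of all genes. In DE against EtOH 4 of the 16 fell: Mup7, Mup11, Mup12 and Mup16. In that comparison 12.7% of all genes fell and 27.8% changed either way. Mup10, with a sequence 99.07% identical to Mup1, had 9425 ± 1035 FPKM in DE, 8552 ± 1453 in DEHP, 9233 ± 1389 in EtOH and 8046 ± 1830 in CT (SD, n = 6 each), and its log2 change in DE against CT was 0.21 ± 0.14 (adjusted p = 0.259). Mup11, the most abundant copy, had 10665 ± 3785 FPKM in DE, 10651 ± 4193 in DEHP, 16627 ± 3635 in EtOH and 13770 ± 1645 in CT, and fell by 0.74 ± 0.23 in DE against EtOH (adjusted p = 0.0158). Mup7 had 1537 ± 2899 FPKM in DE, against 11348 ± 7683 in EtOH (adjusted p = 0.0317).

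**Figure D5:**
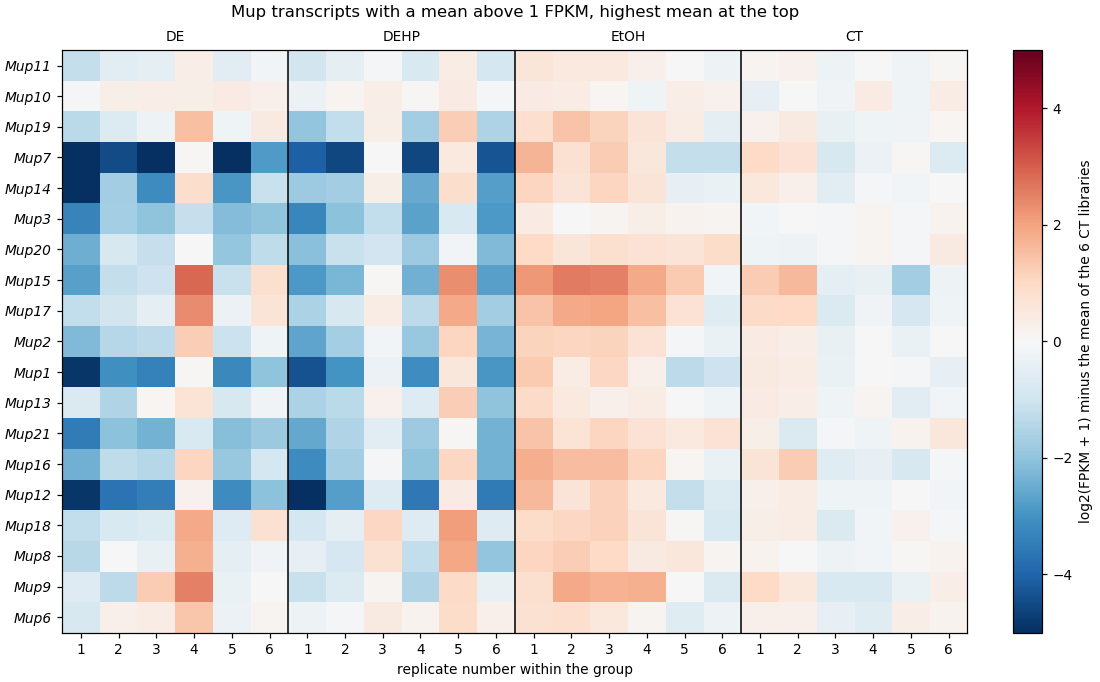
Log2(FPKM + 1) minus the mean of the 6 CT libraries (colour, with values below -5 or above 5 shown at the end of the scale) for the Mup rows with a mean above 1 FPKM, ordered from highest to lowest mean, by library (x axis: replicate number within DE, DEHP, EtOH and CT). Mup3 is blue in every DE and DEHP library, and Mup21 in all of these except DEHP 5, which is near 0, while Mup10 is near white in all groups and the columns DE 4, DEHP 3 and DEHP 5 are paler or redder than the others of their groups.

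Whether the combination differed from the sum of its parts was tested as an interaction, the log2 change of DE over DEHP minus that of EtOH over CT. None of the 10 was called by edgeR or DESeq2, where edgeR called 6.41% of all genes, 3.32% with a positive and 3.09% with a negative term. Their interaction terms ranged from -1.62 to 0.08, and 9 of 10 were below 0, beside 5202 of all 10697 genes. The 4 Mup members varied together within groups, so the 10 signs are not independent. Only Mup21 reached an unadjusted p below 0.05, with a term of -1.62 ± 0.53 (adjusted p = 0.064, edgeR). It passed the threshold without DE 4 (-2.05, adjusted p = 0.0141), without DEHP 1 (adjusted p = 0.042) and without DEHP 4 (adjusted p = 0.04998). The differences of DE over DEHP ranged from -0.73 for Mup21 to 0.15 for Mup20, with standard errors of 0.07 for Gc to 0.72 for Mup1, so small differences between these groups were not detectable for the Mup genes at this number of libraries.

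Deviations from the group means were correlated over the 24 libraries, as a description without a test since the libraries share their groups' treatment and their own composition. The 6 pairs of Mup members had correlations of log2 values within groups between 0.756 and 0.922, with a median of 0.872. Mup copies may share reads, and libraries DE 4, DEHP 3 and DEHP 5 were high across the Mup rows. The part of either in these correlations was not tested. The 15 carrier pairs had a median of 0.316, between -0.640 for Alb with Hpx and 0.749 for Alb with Gc. The 24 pairs of a carrier with a Mup member had a median of 0.067.

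Over all 24 libraries, the genes outside the Mup family whose log2(FPKM + 1) was most like that of Alb were Afm (Pearson r = 0.931), Hsd11b1 (r = 0.927) and Ces1c (r = 0.923). Afm encodes afamin, the vitamin E carrier next to Alb in the albumin gene family, and averaged 76.6 FPKM in DE, 87.4 in DEHP, 106 in EtOH and 124 in CT. For the sum of the Mup rows they were Cyp7b1 (r = 0.926), Hsd3b5 (r = 0.916) and Ces3b (r = 0.912). Hsd3b5, a steroid dehydrogenase of male mouse liver, had 83.3 FPKM in DE 4 and between 0.36 and 6.49 in the other 5 DE libraries. It had 118 and 41.2 FPKM in DEHP 5 and DEHP 3 and between 2.42 and 6.26 in the other 4 DEHP libraries, against 151 to 210 in EtOH and 70.5 to 134 in CT. Cyp7b1, an oxysterol hydroxylase, had 144 FPKM in DE 4 and 159 in DEHP 5, against a CT mean of 111. The 3 libraries with high Mup levels were also high in Hsd3b5.

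Of 18 male-biased liver genes listed, 16 were tested. In DE against CT 2 rose and 10 fell, in DEHP against CT 2 rose and 8 fell, in EtOH against CT 4 rose and 1 fell, and in DE against EtOH 2 rose and 12 fell. Over all genes, 19.3% rose and 17.4% fell in DE, 14.4% and 11.6% in DEHP and 14.2% and 14.5% in EtOH against CT. For DE against EtOH the shares were 15.1% and 12.7%. In EtOH against CT the share of the list called in either direction was near the 28.8% of all genes. The list had median log2 changes of -0.97, -0.96, 0.30 and -1.30 in these comparisons. Those that rose with DE and DEHP were Cyp4a12a and Cyp4a12b, fatty acid hydroxylases of a family that Ppara induces. Cyp4a12b had 214 ± 21.996 FPKM in DE, 214 ± 30.5 in DEHP, 74.5 ± 21.3 in EtOH and 39.4 ± 7.84 in CT (SD, n = 6 each; adjusted p = 2.94e-11 for DE and 5.04e-11 for DEHP against CT, edgeR). Gstp1, a glutathione transferase, fell in DE and in DEHP against CT, with log2 changes of -0.93 ± 0.17 and -1.27 ± 0.17. C8a, a complement chain, also fell in both, with -1.39 ± 0.15 in DE and -1.02 ± 0.14 in DEHP. With ethanol alone Cyp4a12a, Cyp4a12b, Cyp2d9 and Gstp1 rose and Elovl3 fell. Cyp2d9 had log2 changes of -0.12 ± 0.15 in DE and -0.04 ± 0.15 in DEHP against CT, neither called.

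Other plasma proteins were listed to set the carriers in context, and 22 of 24 were tested. In DE against CT 2 rose and 13 fell, in DEHP against CT 1 rose and 10 fell, in EtOH against CT 1 rose and 1 fell, and in DE against EtOH 2 rose and 13 fell. Median log2 changes of the list were -0.31, -0.29, 0.00 and -0.42. Over all genes, 19.3% rose and 17.4% fell in DE, 14.4% and 11.6% in DEHP and 14.2% and 14.5% in EtOH against CT. For DE against EtOH the shares were 15.1% and 12.7%. Mug1, a protease inhibitor, averaged 412 ± 72.5 FPKM in DE, 512 ± 81.8 in DEHP and 826 ± 141 in CT (SD, n = 6 each). Its log2 change was -1.01 ± 0.13 in DE (adjusted p = 1.81e-06) and -0.71 ± 0.13 in DEHP (adjusted p = 0.000274, edgeR). Itih2, which links to hyaluronan, fell in both, with -0.52 ± 0.07 in DE and -0.49 ± 0.07 in DEHP. Igf1, the growth factor that growth hormone induces in liver, fell by 0.78 ± 0.11 in DE against CT (adjusted p = 8.85e-06).

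Those that rose in DE were Igfbp2 and Serpina7, the thyroxine-binding globulin. Igfbp2, an Igf1-binding protein, rose to 1194 ± 212 FPKM in DEHP, against 576 ± 181 in CT (log2 change 1.04 ± 0.17, adjusted p = 6.17e-05). Hp had log2 changes of 0.11 ± 0.24 in DE and 0.33 ± 0.24 in DEHP, and Orm1, an acute-phase carrier, had -0.05 ± 0.19 and -0.14 ± 0.19, none of them called. With ethanol alone Igfals, which holds Igf1 in its serum complex, rose by 0.77 ± 0.11 (adjusted p = 3.00e-05, edgeR). Cp, the copper carrier ceruloplasmin, fell by 0.40 ± 0.11 in EtOH against CT (adjusted p = 0.0077). Igfals was the 1 gene of this list called in the interaction, at -0.77 ± 0.16 (adjusted p = 0.00488).

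Of the 16 partners and receptors of the carriers 11 were tested. In DE against CT 1 rose and 3 fell, in DEHP against CT 1 rose and 3 fell, in EtOH against CT 1 rose and 2 fell, and in DE against EtOH 2 fell. Beside these counts, 36.8% of all genes changed in DE, 26% in DEHP and 28.8% in EtOH against CT and 27.8% in DE against EtOH, and the list's shares in DE and in EtOH against CT were near those of all genes. The gene that rose each time was Fcgrt, part of the receptor that rescues albumin and IgG from degradation in cells. Fcgrt had 149.5 ± 14.8 FPKM in DE, 137 ± 20.8 in DEHP, 132 ± 12.8 in EtOH and 95.3 ± 10.6 in CT (SD, n = 6 each), with adjusted p of 4.33e-05 in DE, 0.00104 in DEHP and 0.000766 in EtOH against CT (edgeR). Thrb, a thyroid hormone receptor, fell in all 3 against CT, with log2 changes of -0.57 ± 0.11 in DE, -0.44 ± 0.11 in DEHP and -0.40 ± 0.11 in EtOH. Insr, the insulin receptor, fell likewise, with -0.64 ± 0.09 in DE, -0.34 ± 0.09 in DEHP and -0.40 ± 0.09 in EtOH. Dio1, which activates thyroxine, fell by 0.39 ± 0.12 in DEHP against CT (adjusted p = 0.0183). Lrp1, a scavenger receptor for many cargo complexes, had log2 changes between -0.10 and 0.11 against CT, none called.

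Regulators known to act on carrier and Mup genes were listed next. Of 22 listed 21 were tested. In DE against CT 2 rose and 9 fell, in DEHP against CT 4 fell, in EtOH against CT 8 rose and 3 fell, and in DE against EtOH 1 rose and 11 fell. Of all genes, 19.3% rose and 17.4% fell in DE, 14.4% and 11.6% in DEHP and 14.2% and 14.5% in EtOH against CT. For DE against EtOH these shares were 15.1% and 12.7%. In DEHP against CT the share of the list called in either direction was below the 26% of all genes. Hnf4a, a nuclear receptor that maintains hepatocyte genes, had 127 ± 19.7 FPKM in DE, 140.5 ± 11.4 in DEHP, 148 ± 12.8 in EtOH and 179.8 ± 10.5 in CT (SD, n = 6 each). It fell in DE against CT, with -0.51 ± 0.09 (adjusted p = 0.00012), and in DEHP against CT, with -0.37 ± 0.09 (adjusted p = 0.00381, edgeR). Ghr, the growth hormone receptor, fell in both, with -0.65 ± 0.07 in DE (adjusted p = 6.52e-08) and -0.43 ± 0.07 in DEHP (adjusted p = 3.85e-05). Cebpb, a factor of the acute-phase response, had -0.96 ± 0.20 in DE and -1.09 ± 0.20 in DEHP. Hlf, another D-box factor, had -0.57 ± 0.13 in DE and -0.52 ± 0.13 in DEHP, and both genes were called in both.

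With ethanol alone Dbp had the largest log2 change of the list. It had 1.21 to 6.88 FPKM in DE livers, 0.65 to 1.94 in DEHP livers, 16.6 to 77.3 in EtOH livers and 0.36 to 1.67 in CT livers. The log2 change of EtOH against CT was 6.06 ± 0.45 (adjusted p = 1.05e-09), and the groups did not overlap. Tef rose by 1.97 ± 0.17 (adjusted p = 1.13e-08) and Nfil3, which binds the same sites as a repressor, fell by 1.22 ± 0.14 (adjusted p = 1.66e-06, edgeR). Cebpa, a factor that binds the albumin promoter, rose to 297 ± 18.2 FPKM in EtOH, against 154 ± 19.2 in CT (SD, n = 6 each; adjusted p = 1.28e-07). These 4 were the called regulators with the smallest adjusted p in that comparison, and all 4 were also called in the interaction, with terms of -4.92 for Dbp, -1.77 for Tef, 1.06 for Nfil3 and -1.004 for Cebpa. Alb, whose promoter holds the D-box letters shown above, had a log2 change of -0.12 ± 0.11 in the same libraries. Any link between these regulators and Alb was not tested. Dbp, Tef and Nfil3 transcripts follow the time of day in liver. The labels state no time of collection, and its part in these values was not tested.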

How the data were processed

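RNA of 24 mouse livers was sequenced, and 6 libraries per group were assigned by their titles. Per the labels' protocols RNA was extracted with Trizol and libraries were made with a TruSeq kit. Per the file headers, the authors deposited for each gene an expected count (estimated reads, not normalised), a transcript length and an FPKM value. The submitters' processing notes name Cuffdiff without a version and the builds mm10 and GRCm38. No source used here names the aligner, the counting program or its handling of reads shared between Mup copies. Between 94.5% and 95.3% of the counts above 0 were whole numbers.

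After rounding, expected counts went into edgeR 4.0.16 under R 4.3.3. TMM factors, a model of the 4 groups without covariates and the quasi-likelihood F test on 20 residual degrees of freedom were used. A gene was tested at 1 FPKM or more in at least 6 libraries, which left 10697 genes. Benjamini-Hochberg adjustment ran over these genes within a comparison, and calls are adjusted p-values below 0.05. Standard errors are the unshrunken log2 change over the square root of F. Changes lower than 0 are lower in the first-named group. FPKM means carry the SD over 6 libraries. Alternatives used limma 3.58.1 on log2(FPKM + 1) and DESeq2 1.42.0, other scalings, filters and samples. The script was checked on simulated data with the same setting of spread for every gene and group. That check does not cover the wide scatter of the Mup rows in DE and DEHP.

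The members, the 5 other gene lists and the 10 marker lists were chosen with earlier results of these data known. In each list the text names up to 4 called genes with the smallest adjusted p and up to 2 not called genes with the largest mean FPKM, and not all of these are given. One gene of the lists is not reported here. Hsd3b5 and Cyp7b1 are named by their likeness to the sum of the Mup rows. Identity between Mup genes was computed on coding transcripts of GENCODE M21, as the highest over transcript pairs, in place of proteins. Replicate numbers were not used to pair libraries.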

Additional observations from a re-analysis of the deposited data

Results flagged for a closer look

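Of 44 sets of 6 libraries (the 10 members and the sum of the Mup rows in 4 groups), 5 had 1 library whose gap to its nearest neighbour, relative to the range of the set, passed Dixon's 95% critical value. Chance alone passes about 1 in 20. Hpx had 5214 FPKM in DEHP 1, with 3249.7 as the next highest, and 4687 FPKM in EtOH 5, with 3389.6 as the next highest. Library DE 4 accounts for the other 3: Mup1 at 751 FPKM with 180.1 next, Mup21 at 95.5 FPKM with 43.9 next, and the sum of the Mup rows at 82999.6 FPKM with 41346 next. Values without these libraries are given beside some of the results they touch. Muscle markers in DE 4 summed to at most 4.47 FPKM, and its Alb level of 21936 FPKM was inside the range of its group. Its hepatocyte markers had the highest sum of the group, 25461 FPKM, with a group median of 22103. The cause of the high Mup levels was not tested.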

How the results depend on the processing

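In 14 alternative analyses and with each of 24 libraries left out in turn, the members called numbered 7 to 10 in DE against CT (9 in the main analysis), 6 to 8 in DEHP against CT (7), 8 to 10 in DE against EtOH (10) and 0 in DE against DEHP (0). For EtOH against CT the number called was 2 in the main analysis, Rbp4 and Ahsg. It was 1 with library size only, quantile normalisation, scaling without members and Mup genes, no filter or the 3 limma analyses. It was also 1 with the replicate block or without the 3 libraries holding other tissues. With quantile normalisation neither Rbp4 nor Ahsg was called, and the 1 call was Mup21. With limma on TPM neither was called, and the 1 call was a fall of Alb. The number called was 3 with only the groups compared in the fit and 0 with the length trend removed, alone or with the replicate block. It ranged from 1 to 4 with 1 library left out. The replicate block ended the call of Ttr in DE against CT (adjusted p = 0.0759) and of Rbp4 in EtOH against CT (adjusted p = 0.0526) and changed no other call of a member. Same-numbered libraries did not deviate together (36 pairs, r from -0.215 to 0.211), and 3 of 24 correlated best with their own number. The interaction called 0 members, and 0 to 1 with 1 library left out.

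The Mup sum changed sign in DE against DEHP with the length trend removed (-0.0492), with the block as well (-0.0325) and without the 3 libraries (-0.10), and ranged from -0.37 to 0.41 with 1 library left out. Over the 4 members alone it was -1.58 in DE and in DEHP against CT. With 1 library left out, the sum of all Mup rows ranged from -1.04 to -0.50 in DE against CT and from -1.04 to -0.53 in DEHP against CT. In EtOH against CT, Gc was -0.0486 with quantile normalisation and -0.0644 with TPM, Mup1 was -0.00085 with TPM, and Hpx ranged from -0.18 to 0.0804 with 1 library left out. Quantile normalisation gives Alb, the gene with most counts, the same value in every library, so its change was 0 there by construction. Of 380 alternative values of members in DE against DEHP 45 had the opposite sign, the farthest from 0 at 0.30. No called member changed sign.

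TPM moved the median of all genes to -0.15 in EtOH against CT, with 455 higher and 2768 lower calls (1524 and 1555 in the main analysis), and to 0.12 in DE against EtOH, with 2530 and 682 (1620 and 1356). Library size alone gave 930 and 2061, and 2198 and 915, and limma on log2(FPKM + 1) gave 1032 and 1804, and 2093 and 933. The interaction had 355 positive and 331 negative calls, against 405 and 106 with TPM (median 0.11), 447 and 203 with library size and 292 and 415 with quantile normalisation. DE against DEHP had 13 calls in edgeR and 19 higher and 25 lower in DESeq2. Alb passed the threshold in EtOH against CT with TPM (-0.28, adjusted p = 0.0379). The cause of these changes was not tested. Depth does not limit the carriers, with 14752 counts or more in every library, but Mup21 fell to 60 counts.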
